A study of Homo sapiens with 12 samples.

Results

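The circular RNA described here is hsa_circ_0001573, 1 of 6384 circRNA rows in the deposited table, taken by its identifier. It was picked with its counts known, for low counts in cells resistant to BET inhibitors, so its levels are given as a description with no test. The identifier is of the circBase style. The deposited table pairs it with no host gene or sequence, and it matched none of the gene names used here, so no gene, position or sequence is given for it.

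Circular RNAs (circRNAs) are closed transcripts made when a downstream splice donor is joined to an upstream acceptor. They lack free ends, resist exonucleases and can build up to high levels in cells that divide slowly or transcribe the host gene strongly. IGF2BP2 is an RNA-binding protein that reads methylated adenosines in its targets and is known to protect bound transcripts, MYC mRNA among them, from decay and to help their translation. BET inhibitors displace bromodomain and extra-terminal proteins from acetylated chromatin and lower the transcription of many genes, MYC being the best known.

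RNA was immunoprecipitated from MDA-MB-231, an established human triple-negative breast cancer line, and sequenced as 12 libraries in 4 groups of 3. Res cells had established resistance to a BET inhibitor (BETi) and were kept under it until harvest, and Sens cells were the untreated parental line, labelled WT. Lysate of each line went to an anti-IGF2BP2 monoclonal antibody (RIP) or to normal rabbit IgG, the background control, which gave the groups Res RIP, Sens RIP, Res IgG and Sens IgG. Resistance and the drug itself cannot be told apart in this design, nor can fewer cells carrying a circRNA from less of it per cell, and the labels give neither the inhibitor's name nor whether Res is 1 clone. They also do not say that replicates came from separate cultures, so the spread between libraries, and any p-value made from it, may be technical.

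The libraries were shallow for circRNAs, with 1960 to 8662 circRNA counts each, and ERCC spike-in RNA took 7.51% to 97.9% of a library's counts. Replicates of an antibody group shared 79.6% to 87.0% of the circRNAs that either of a pair detected with IgG, but 25.1% to 31.2% with the RIP. A count of 0 in a library allows a share of up to 0.0346% to 0.153% of its circRNA counts (3 counts of the total). Values after ± are SDs over n = 3 libraries, and intervals are exact 95% Clopper-Pearson ones that cover counting error only.

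In Sens cells hsa_circ_0001573 was the most abundant circRNA of every library, whichever antibody was used. In Res cells it ranked far lower, though still above most of the circRNAs detected. It was counted 7, 7 and 6 times in the Res RIP libraries, against 650, 556 and 518 times in the Sens RIP libraries. With IgG it was counted 4, 5 and 10 times in Res, against 426, 324 and 430 times in Sens. All 12 libraries detected it, every Res library held fewer than every Sens library, and the groups of the lines were far from overlapping with either antibody. That gap restates the choice, since hsa_circ_0001573 was picked for low counts in Res.

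As a share of circRNA counts, hsa_circ_0001573 made up 0.122%, 0.0808% and 0.116% of the Res RIP libraries, against 11.7%, 11.7% and 11.6% of the Sens RIP libraries. The means were 0.106% ± 0.0223 in Res RIP and 11.7% ± 0.0228 in Sens RIP. With the 3 libraries of a group pooled, the intervals ran from 0.0624% to 0.158% in Res RIP and from 11.2% to 12.2% in Sens RIP. The Sens RIP libraries lay closer together than counting error alone would place them, since that error was 0.459 percentage points per library.

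In the IgG libraries the shares were 0.104%, 0.0927% and 0.166% in Res, against 14.3%, 16.5% and 15.1% in Sens. Here the means were 0.121% ± 0.0394 in Res IgG and 15.3% ± 1.15 in Sens IgG, with pooled intervals of 0.0748% to 0.194% and 14.4% to 16.0%. The circRNA that set the Sens libraries apart was thus present at a high share in the background control too, where its share in Sens was above that with the IGF2BP2 antibody in every library.

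**Figure D1:**
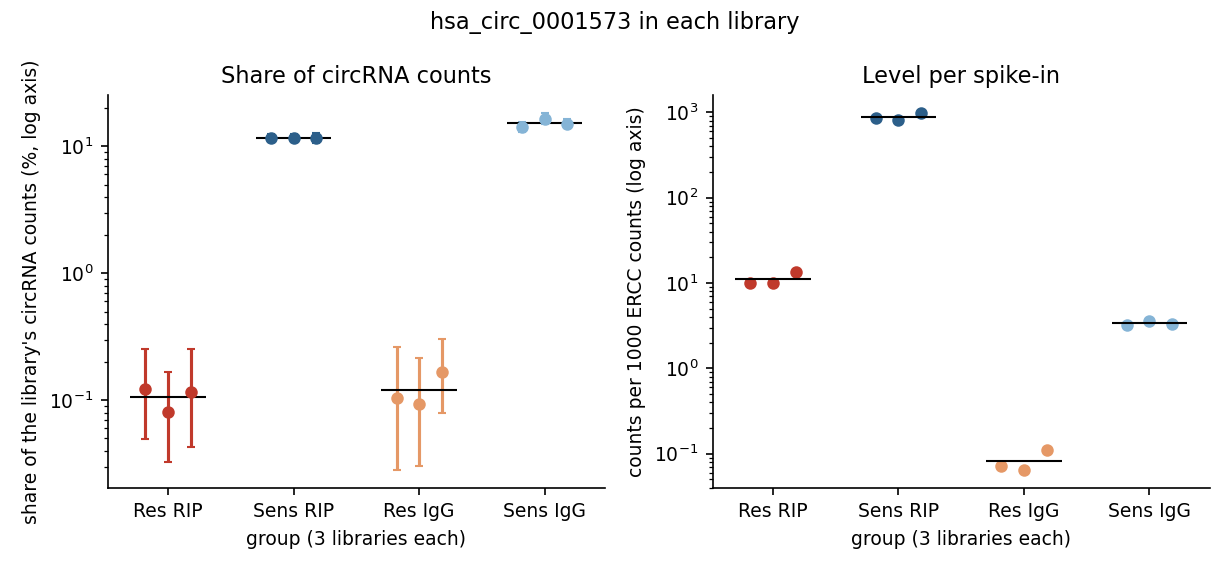
Level of hsa_circ_0001573 in each of the 12 libraries. The left panel gives its share of the library's circRNA counts in percent with exact 95% intervals, the right panel its counts per 1000 ERCC counts, both on log axes, with a black line at each group's mean. Shares are 0.0808% to 0.166% in all 6 Res libraries and 11.6% to 16.5% in all 6 Sens libraries, while the spike-in scale separates RIP from IgG as well.

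The position of hsa_circ_0001573 among the other circRNAs differed between the lines. By summed counts it ranked 130th of 4274 detected circRNAs in Res RIP, with 20 counts, and first in Sens RIP, with 1724. In Res RIP the first place belonged to hsa_circ_0006156 with 522 counts, 2.67% of the total. In Sens RIP hsa_circ_0006156 came second with 570 counts, 3.86% of the total, and hsa_circ_0001573 had 3.02 times as many. It took the 8 next circRNAs together to match the count of hsa_circ_0001573 in Sens RIP.

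With IgG the gap to the other circRNAs in Sens was wider still, in libraries of low complexity. The Sens IgG libraries together detected 475 circRNAs, against 3487 in Sens RIP and 1243 in Res IgG, and ERCC RNA took a mean of 97.8% of their counts. In Res IgG hsa_circ_0001573 ranked 161st of 1243 with 19 counts, a sum that 25 other circRNAs shared, and hsa_circ_0001772 led with 186. In Sens IgG it had 1180 counts, 11.6 times the 102 counts of the next circRNA, hsa_circ_0001550. The 26 next circRNAs together were needed to reach it.

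Between the lines, the share of hsa_circ_0001573 was 110-fold lower in Res RIP than in Sens RIP and 127-fold lower in Res IgG than in Sens IgG. By summed counts over summed circRNA counts these ratios were 114-fold (interval 73.7 to 187) and 122-fold (interval 77.7 to 203). The intervals overlapped, and a difference in size between the antibodies was not detectable at the depth of 20 and 19 Res counts.

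On each scale used the level was lower in Res, but the size of the difference depended on the scale. Other scales were CPM on TMM effective totals, which are set after extreme circRNAs are trimmed, and counts per 1000 ERCC counts. On the TMM scale the levels were 1746 ± 310 CPM in Res RIP and 201234 ± 9524 CPM in Sens RIP, a 115-fold difference. They were 1003 ± 308 CPM in Res IgG and 64381 ± 2925 CPM in Sens IgG, a 64.2-fold difference. The fitted log2 fold changes were -6.86 in the RIP and -5.92 with IgG, where the medians over all 1307 tested circRNAs were 0.00 and 1.68. These medians include circRNAs with no count in a group. Per 1000 ERCC counts there were 11.1 ± 1.97 in Res RIP and 884 ± 83.5 in Sens RIP, 79.5-fold lower in Res. With IgG there were 0.0818 ± 0.0244 in Res and 3.37 ± 0.217 in Sens, 41.2-fold lower in Res.

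Per the labels, the spike-in went into equivalent amounts of RNA after precipitation, so values on the ERCC scale do not measure how much RNA an antibody brought down. A measure that scaling of a library does not move is the ratio of hsa_circ_0001573 to the summed rest of the circRNAs. That ratio was 129-fold lower in Res RIP than in Sens RIP, and 143-fold lower in Res IgG than in Sens IgG. It takes the rest as its yardstick, so it also moves where the rest differs between the lines. Per spike-in the rest was 1.59-fold higher in Res with the RIP and 3.65-fold higher in Res with IgG.

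Over all circRNAs tested, edgeR's quasi-likelihood test called 31 of 1307 between Res RIP and Sens RIP, 2.37% (Benjamini-Hochberg adjusted p under 0.05). Of these, 17 were higher in Res (1.3%) and 14 lower (1.07%), and leaving out single libraries gave 8 to 39 calls. Spike-in totals gave 51 higher and 7 lower. Between Res IgG and Sens IgG it called 883, 67.6%, of which 644 were higher in Res (49.3%) and 239 lower (18.3%). These shares are the background of calls. Nothing is read from them for hsa_circ_0001573, because it was picked on this contrast.

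A group of less abundant circRNAs counted in Sens with both antibodies gives its setting. Besides hsa_circ_0001573, 18 circRNAs had at least 20 summed counts in both Sens RIP and Sens IgG. They were admitted on their Sens counts alone, which by itself favours low ratios of Res to Sens. Their summed counts reached 570 in Sens RIP and 102 in Sens IgG, against 1724 and 1180 for hsa_circ_0001573. Their shares in Res RIP were 0.378 to 2.01 times those in Sens RIP, with a median of 0.726, against 0.00876 for hsa_circ_0001573. With IgG, 3 of the 18 had no count in Res, and the other 15 had shares in Res of 0.0665 to 2.56 times those in Sens. The median over the 18 with IgG was 0.367, so a lower share in Res IgG was usual in this set, against 0.00821 for hsa_circ_0001573. In the RIP none of the 18 came near hsa_circ_0001573, though counts near 20 are too few to measure a fall of that size. The cut left out hsa_circ_0000591, with 19 summed counts in Sens IgG, which had 2 in Res RIP against 30 in Sens RIP. For the 3 with no count in Res IgG the depth does not set a comparable ratio.

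**Figure D2:**
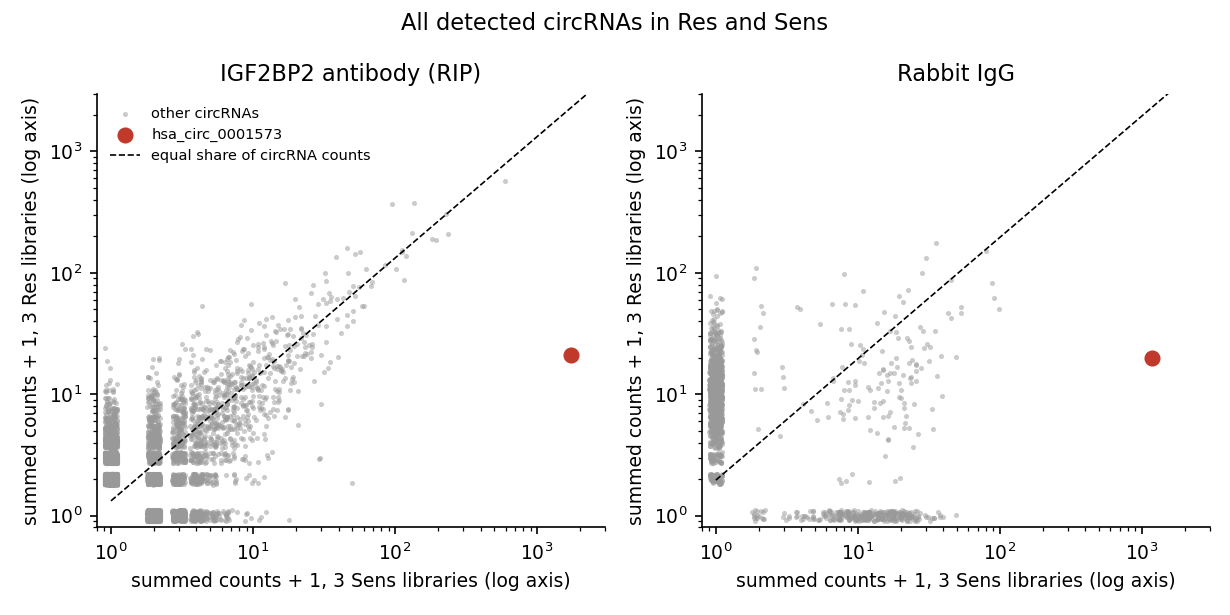
Summed counts plus 1 of every detected circRNA over the 3 Sens libraries (x) and the 3 Res libraries (y), log axes, with the RIP on the left and IgG on the right. Grey points are the other circRNAs, spread slightly at random so that equal counts can be seen, and the dashed line marks an equal share of circRNA counts. hsa_circ_0001573, in red, stands at 20 Res and 1724 Sens counts in the RIP and at 19 Res and 1180 Sens counts with IgG, far to the right of the others and below the line in both panels.

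Whether hsa_circ_0001573 was enriched by the IGF2BP2 antibody over IgG had no single answer, since the direction turned with the scale. As a share of circRNA counts it was lower in the RIP. In Res the share in the RIP was 0.881 times that in IgG, and the libraries overlapped. By summed counts the Res ratio was 0.823 with an interval of 0.417 to 1.63, which includes equal shares. In Sens the share in the RIP was 0.762 times that in IgG, and all 3 Sens RIP libraries lay below all 3 Sens IgG libraries. A lower share in Sens RIP was not particular to hsa_circ_0001573. With libraries scaled by their circRNA totals, edgeR called 269 of the 1307 tested lower in Sens RIP than in Sens IgG, and 164 higher. The Sens ratio by summed counts was 0.770 with an interval of 0.715 to 0.830.

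On the TMM scale the direction turned with the filter on low counts. With the 1307 tested circRNAs Res RIP was 1.74 times Res IgG and Sens RIP was 3.13 times Sens IgG in mean CPM. The fitted log2 fold changes were 0.70 in Res and 1.64 in Sens. With TMM over the 111 circRNAs that had at least 10 counts in 3 libraries they were -0.63 in Res and -0.36 in Sens. The median log2 fold change over all 1307 was 0.00 in Res and 2.44 in Sens. CircRNAs with no count in a group enter these medians, so they are rough centres. In Sens IgG only 475 circRNAs of all rows had a count. Whether hsa_circ_0001573 lay above or below the median depended on the setting, and nothing is read from this. In Res it lay above with TMM and with spike-in totals (6.97 against 6.01) and below with column totals (-0.26 against -0.25) and with the 10-count filter (-0.63 against 0.25). In Sens it lay below with TMM, with column totals (-0.39 against 1.84) and with the 10-count filter (-0.36 against 2.84), and above with spike-in totals (8.04 against 7.63). Over all circRNAs tested, edgeR called 780 between Res RIP and Res IgG, 59.7%, with 440 higher in the RIP (33.7%) and 340 lower (26%). Column totals gave 381 higher and 484 lower, and spike-in totals 877 higher and 0 lower. Between Sens RIP and Sens IgG it called 654, 50%, with 520 higher in the RIP (39.8%) and 134 lower (10.3%). Here column totals gave 164 higher and 269 lower, and spike-in totals 855 higher and 0 lower. These are again the background, and hsa_circ_0001573 gets no test against it.

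Per 1000 ERCC counts the RIP exceeded IgG 136-fold in Res and 263-fold in Sens. The sum of all circRNA counts in the RIP exceeded that in IgG 157-fold in Res and 344-fold in Sens on the same scale. Set against the summed rest of the circRNAs, which no scaling moves, hsa_circ_0001573 was 0.822 times as abundant in Res RIP as in Res IgG, and 0.740 times as abundant in Sens RIP as in Sens IgG. Relative to this summed rest the counts in Res were thus too few to set a direction. In Sens hsa_circ_0001573 was less abundant, relative to the rest, with the IGF2BP2 antibody than with IgG. The rest was made of unlike sets, since 3487 circRNAs were detected in Sens RIP and 475 in Sens IgG.

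**Figure D3:**
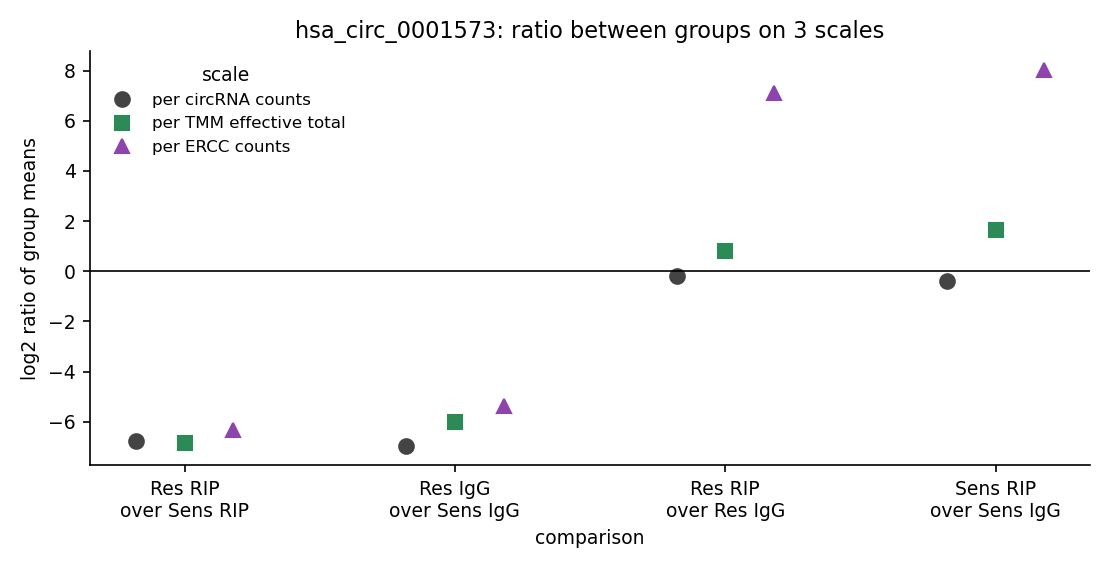
Log2 ratio of the group means of hsa_circ_0001573 for 4 comparisons, on 3 scales: per circRNA counts (circles), per TMM effective total (squares) and per ERCC counts (triangles). The 2 comparisons of Res with Sens lie between -6.99 and -5.36 on every scale. The 2 comparisons of RIP with IgG run from -0.39 to 8.04, on both sides of the line at 0.

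The submitters' design text defines a delta enrichment, the RIP minus IgG difference in RPM (counts scaled to a common total per library) in Res minus that in Sens, and reads negative values as decreased association with IGF2BP2. It does not give the denominator of the RPM. With each library's summed circRNA counts as denominator, hsa_circ_0001573 had the highest delta of all 1307 tested circRNAs, although its share in Res was low. Its RIP minus IgG difference was -144 RPM in Res and -36364 RPM in Sens. The delta of 36220 RPM (SE 6648) came almost wholly from the Sens libraries, where IgG exceeded the RIP. The next highest delta was 12282 RPM.

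The same delta became the lowest of all 1307 when other denominators were used. It was -98788 RPM (SE 611) with all counts of a library, spike-in included, -136110 CPM (SE 5758) on the TMM scale and -870 per 1000 ERCC counts (SE 48.2). Leaving hsa_circ_0001573 out of the denominator made its positive value larger, at 48602 RPM (SE 9294). With the denominator, the sign of the Sens difference turned: it was 99679 RPM with all counts and -36364 RPM with circRNA counts.

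Because hsa_circ_0001573 took 11.6% to 16.5% of the circRNA counts of each Sens library, it also entered the scaling of the other circRNAs. Without it, the RPM values of all others were 1.001-fold to 1.002-fold higher in the 6 Res libraries. They were 1.132-fold higher in each Sens RIP library and 1.17-fold to 1.20-fold higher in the Sens IgG libraries. Relative to the spike-in, the summed other circRNAs were 1.59-fold higher in Res RIP than in Sens RIP, against 1.41-fold with hsa_circ_0001573 counted in. With IgG they were 3.65-fold higher in Res than in Sens, against 3.10-fold.

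The delta enrichments of the other 1306 circRNAs shifted with it. Of these, 780 were below 0 with hsa_circ_0001573 left out of the denominators and 765 with it counted in. The sign turned for 23 circRNAs, 1.76% of the 1306, of which 19 were above 0 with it counted in. None of the 23 was further than 1 SE from 0 on either scale. The most abundant of them was hsa_circ_0000711, with 199 summed counts in Res RIP against 137 in Sens RIP, and with IgG 7 in Res against 0 in Sens. Its delta was -296 RPM (SE 2023) with hsa_circ_0001573 left out and 910 RPM (SE 1968) with it counted in. For hsa_circ_0000992 the delta was -271 RPM (SE 825) with it left out and 444 RPM (SE 820) with it counted in.

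When libraries were scaled by their circRNA totals alone, calls between the lines moved with this 1 circRNA. Between Res RIP and Sens RIP, edgeR's quasi-likelihood test called 13 other circRNAs higher and 14 lower with hsa_circ_0001573 left out of the totals, and 18 higher and 10 lower with it counted in (adjusted p under 0.05). Of the 1306, 23 were called on both scales in the same direction. Between Res IgG and Sens IgG the calls were 541 higher and 289 lower with it left out, and 571 higher and 279 lower with it counted in, 820 of them shared. No circRNA was called in opposite directions.

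TMM scaling, which trims extreme circRNAs, was still touched. Between Res RIP and Sens RIP 22 circRNAs were called higher and 7 lower with hsa_circ_0001573 left out of totals and factors, against 17 higher and 14 lower with it counted in, and 24 calls were shared. The RIP to IgG difference between the lines was called for 202 circRNAs without it and for 248 with it (19% of those tested, 5.59% higher and 13.4% lower in Res), 202 of them shared. With column totals 108 were higher and 106 lower in Res. Leaving out single libraries gave 82 to 221, the lowest without Res IgG replicate 2. TMM sets every library against 1 library that the method picks. That library was Res RIP replicate 1 with hsa_circ_0001573 in the totals and Sens IgG replicate 2 without it. With Res RIP replicate 1 kept as that library, leaving out hsa_circ_0001573 gave 30 calls between the RIP groups and 245 for the difference between the lines, and all of these were among the calls made with it counted in.

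**Figure D4:**
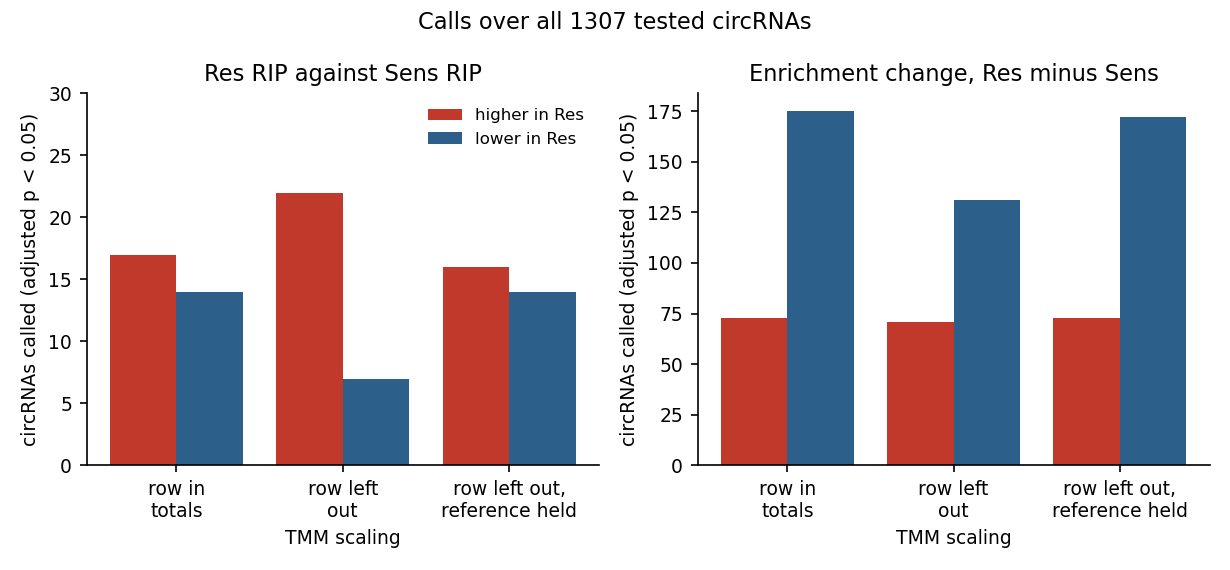
Numbers of circRNAs called higher (red) or lower (blue) in Res among 1307 tested, by edgeR with TMM scaling, for Res RIP against Sens RIP (left) and for the change of the RIP to IgG difference (right). In each panel the bars stand for hsa_circ_0001573 in the totals, left out, and left out with the TMM reference library kept. Lower calls in the RIP number 14, 7 and 14, and lower calls of the enrichment change number 175, 131 and 172.

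Few other circRNAs were highly correlated with hsa_circ_0001573, and low counts limited the r that most could reach. Over the 12 libraries the log2 CPM of hsa_circ_0001573 was most like that of hsa_circ_0007822, with Pearson's r = 0.92, and of hsa_circ_0000591, with r = 0.90. By Spearman's rho the order of these 2 turned, with 0.87 for hsa_circ_0007822 and 0.89 for hsa_circ_0000591. Across all 1306 others the median r was -0.16, and 1 had an r above 0.9. hsa_circ_0007822 had 3 summed counts in Res RIP against 8 in Sens RIP, and 0 in Res IgG against 12 in Sens IgG. hsa_circ_0000591 had 2 in Res RIP against 30 in Sens RIP, and with IgG 0 in Res against 19 in Sens. These circRNAs were picked for that likeness, so the direction restates the choice. In Sens RIP, hsa_circ_0001573 had 57.5 times the counts of hsa_circ_0000591.

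The most opposite patterns belonged to hsa_circ_0087960, with r = -0.94, and hsa_circ_0079449, with r = -0.92. hsa_circ_0087960 had 21 summed counts in Res RIP and 85 in Res IgG, and none in the 6 Sens libraries. hsa_circ_0079449 had 8 and 41 in the same Res groups and none in Sens. On the spike-in scale these opposite correlations were -0.26 and -0.23, while the like ones were 0.89 and 0.86. The 12 points share 4 groups, and low counts limit each value, so these correlations describe the libraries and carry no p.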

How the data were processed

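RNA immunoprecipitates of MDA-MB-231 Res and Sens cells were compared. The authors deposited unnormalized counts for 6384 circRNAs and 57 ERCC transcripts. Per the labels, the authors scaled their data to the spike-in with RUVSeq, but the deposited counts do not carry this. The build in the submitters' processing notes is GRCh37, while the aligner, circRNA caller and counting rule are not given in the sources used here. Groups came from sample titles, and columns were matched by library name.

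ERCC rows were left out of circRNA totals. A minimum of 2 counts in 3 or more libraries left 1307 circRNAs, tested with edgeR 4.0.16 (TMM on the tested circRNAs, quasi-likelihood test, R 4.3.3), all 12 libraries in 1 fit with 1 coefficient per group. The method was tested on simulated data. DESeq2 1.42.0 was an alternative. Shares, ratios and delta enrichments were computed from the counts, and likeness from log2 CPM (prior count 2). Besides hsa_circ_0001573, circRNAs were named by rule: the 2 most like and 2 most opposite patterns, the leading other circRNA of each group, and the 2 most abundant whose delta sign turned. The member, lists and rules were chosen with earlier results of these data known.

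All 12 pairs of replicates differed by more than sampling noise (chi-square over circRNAs with at least 5 summed counts, 1.29 to 1.84 per degree of freedom). With at least 10 counts, Sens RIP replicates 2 and 3 did not (chi-square p = 0.146), and the 3 libraries were kept as separate. No shared deviation of libraries of the same replicate number was seen (r of -0.0521 to 0.0503 over 18 pairs). The other tested circRNAs had a median of 18 total counts, and counts this low could hide a pairing.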

Additional observations from a re-analysis of the deposited data

Results flagged for a closer look

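The difference between RIP and IgG differed between Res and Sens for 248 circRNAs by the interaction test of edgeR (adjusted p under 0.05), 73 higher and 175 lower in Res. With column totals the split was 108 higher and 106 lower. It stands here because the antibody contrast was tested for a difference between the 2 lines. Of the 248, 202 were called with hsa_circ_0001573 left out of the library totals, and 245 with the TMM reference library also kept. For hsa_circ_0001573 itself the fitted log2 change was -0.94 on the TMM scale, 0.13 with column totals and -1.06 with spike-in totals, given with no test.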

How the results depend on the processing

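Both ratios of Res to Sens of hsa_circ_0001573 stayed below -5 on the log2 scale under every alternative run, and leaving out each library in turn gave -6.93 to -6.49 in the RIP and -6.24 to -5.80 with IgG. Spike-in totals gave -6.35 in the RIP and -5.28 with IgG, where column totals gave -6.92, or -7.15 with the circRNA left out, and the 10-count filter gave -6.74. The RIP to IgG ratios were less stable. In Res the log2 ratio was -0.26 with column totals, with or without the circRNA, -0.63 with the 10-count filter, 6.97 with spike-in totals and 0.54 to 1.02 without single libraries. In Sens it was -0.36 with the 10-count filter, -0.39 with column totals, -0.45 with those without the circRNA, 8.04 with spike-in totals, 1.34 with TMM without the circRNA, 1.40 with DESeq2, 1.50 with no filter and 1.22 to 1.68 without single libraries. The delta enrichment was 48602 with the circRNA left out of the denominator, turned to -98788 with all counts, -136110 on the TMM scale and -870 per 1000 ERCC counts, and was 30062 to 41454 without single libraries. Other circRNAs below 0 numbered 494 per 1000 ERCC counts and 755 to 774 without single libraries. Of all counts, spike-in included, hsa_circ_0001573 took 0.00766% in Res IgG, 0.329% in Sens IgG and 10.3% in Sens RIP. Without single libraries its share of circRNA counts was 0.0983% to 0.119% (Res RIP), 11.6% to 11.7% (Sens RIP), 0.0981% to 0.135% (Res IgG) and 14.7% to 15.8% (Sens IgG). Of the 10 most like circRNAs, 5 were shared by Spearman's rho.

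Calls over all circRNAs depended on the processing, and no cause of this was tested. The prior degrees of freedom of edgeR set how far the shared spread replaces a circRNA's own. They were infinite in the main fit, so no circRNA's own spread entered its p-values there. They were 42.3 with hsa_circ_0001573 left out under TMM and 6.06 without Res IgG replicate 2. Whether this set the number of calls was not tested. For Res RIP against Sens RIP there were 58 with spike-in totals, 17 with no filter (6384 tested) and 17 with the replicate block. Leaving out single libraries gave 8 to 39. There were 8 without Res IgG replicate 2, 14 without Res RIP replicate 2 and 15 without Sens RIP replicate 2. Without Res RIP replicate 1 or Sens RIP replicate 3 there were 19. DESeq2 called 375 for Res IgG against Sens IgG, 311 for Res RIP against Res IgG, 309 for Sens RIP against Sens IgG and 123 for the change between lines. With at least 10 counts in 3 libraries these comparisons gave 77, 88, 86 and 57 calls, but of only 111 tested. Each was a larger part of those tested than in the main fit, where 67.6%, 59.7%, 50% and 19% of 1307 were called. Sens RIP against Sens IgG gave 433 with column totals and 425 with those without the circRNA. With no filter it gave 380 and the change between lines 116, each of 6384 tested. Without single libraries the ranges were 792 to 886, 631 to 785, 488 to 654 and 82 to 221, with 82 without Res IgG replicate 2 and 158 without Sens IgG replicate 3. No pairing by replicate number was seen, though low counts could hide one. The replicate block, which gave 166 for the change between lines, is thus only a check. Keeping the TMM reference library, and the 10-count filter for the ratios of hsa_circ_0001573, were chosen after seeing the data.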
